A study of Nothobranchius furzeri with 20 samples.

Results

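This account describes 150 genes of the killifish brain that stood higher in 5 of the 27-week libraries than in 4 others of the same age and the same labelled treatment. They were chosen from 26739 genes by their measured levels. Of these genes, 18153 averaged 1 CPM or more (the count of a gene divided by the total of its library and scaled up to a common total), and in 17606 of them the ranges of exercised and unexercised 9-week libraries overlapped. For each of the 17606 a score was taken as the lowest first-run value minus the highest second-run value, on the scale log2(CPM + 0.5), and the 150 highest scores define the list. The first run is 27-week replicates 1 to 5, whose titles carry consecutive library numbers. The second run is replicates 6, 7, 9 and 10, from a later stretch of numbers. Replicate 8, from the same later stretch, was left out of the choice. Replicate numbers were given here, by the order of the library numbers within each group.

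The turquoise killifish (Nothobranchius furzeri) is an annual fish of temporary pools that ages within months and is used as a vertebrate model of ageing. A swim tunnel makes a fish swim against a steady flow of water. Whole-brain RNA mixes neurons, glia, vessel cells and blood, and the adult fish brain keeps dividing progenitor cells. In such bulk samples more cells of a type and more RNA per cell cannot be told apart.

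The brains were those of male fish, and the strain was MZM-04/10p, which derives from the wild. The groups are 5 libraries of 9 weeks with the perturbation label none, 5 of 9 weeks with the label swim-tunnel, and 10 of 27 weeks, all labelled swim-tunnel, with unexercised 27-week fish not analysed here. The labels give both runs of 27-week libraries the same age, sex, strain, tissue and treatment, and state nothing that separates them besides the numbers in their titles. No label says that each library is another fish, so every p-value measures only the spread between these libraries. The identifiers carry no gene names in the files, and 0 of 26739 matched the RefSeq gene table of assembly NfurGRZ-RIMD1. The functions of the 150 genes, pathway and cell type lists, the check of the brain label against marker genes, and sequences were therefore not analysed here, and by the naming rule 4 of the 150 are given by identifier.

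Library totals ran from 15048627 to 34843199 counts. They were 19356620 to 24311436 in the first run and 24301659 to 27411213 in the second, so the runs barely overlapped in depth. Genes detected (21596 to 21804 against 21755 to 21853), the share of the 10 most counted genes (3.10% to 3.55% against 3.18% to 3.62%) and the TMM scaling factors (1.03 to 1.05 against 0.995 to 1.03) overlapped between the runs. Replicate 8 stood apart, with 10.4% of its counts in 10 genes and a TMM factor of 0.731. Its main counts over the list are given with both raw and TMM-scaled totals. Its CPM in the named genes, and the choice with it included, use raw totals only.

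The values of both 27-week runs chose the 150 genes, so their difference is a description and carries no test. The median gene was 1.46-fold higher in the first run than in the second, comparing run medians, and 22 of the 150 were at least 2-fold higher. The highest score was 1.94 and the next 1.35 on the log2 scale, while the median score was 0.31. At the edge of the list the last gene inside had a score of 0.2408 and the first outside 0.2407, so the boundary marks no break. All first-run libraries lay above all second-run libraries in 1512 of the 17606 genes (8.59%), from which the 150 are the upper end. The opposite order held in 1105 genes (6.28%).

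The list takes its name from being higher in the first run only, and the 9-week libraries, whose position the rule did not fix, show how far that holds. In most of the genes the second run stood with the 9-week fish and the first run stood above both. The median difference from the 9-week median was 0.53 for the first run and 0.02 for the second, against 0.04 and 0.02 over all 17606 genes (log2(CPM + 0.5)). All 5 first-run libraries exceeded all 10 9-week libraries in 112 of the 150 genes, where 6.90% of the 17606 genes did so. The second run overlapped the 9-week range in 142 of the 150, lay above it in 3 and below it in 5, where it lay above in 2.22% and below in 0.829% of all genes. Against exercised 9-week libraries alone the first run was above in 115 genes (8.92% of all), and against unexercised ones alone in 130 (12.4% of all). Both conditions together, the first run above and the second within the 9-week range, held in 108 of the 150 genes and in 6.04% of all. Since the choice favoured genes with high first-run and low second-run values, these medians and counts are descriptions. Without replicate 1 of the 27-week group, with the genes chosen again, the first run was above all 9-week libraries in 57 of 150. With that replicate left out, 7.84% of all 17606 genes met this condition, and 13 of the 89 genes new to the list did. Without replicate 6, 7 or 10 the second run was below all 9-week libraries in 10, 11 and 8 genes. No share over all genes is given for these counts, and a run with fewer libraries meets the condition more easily.

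**Figure D1:**
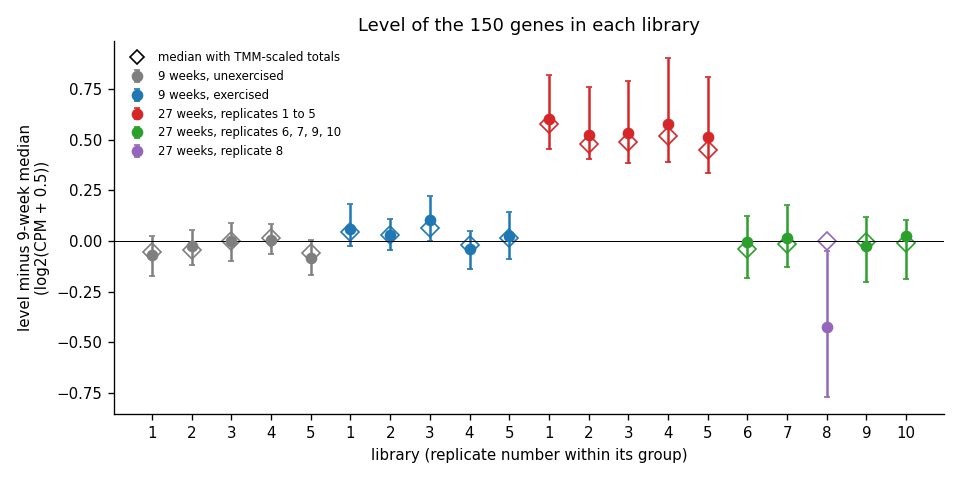
Median level of the 150 genes in each of the 20 libraries, as the difference from each gene's median over the 10 9-week libraries on the log2(CPM + 0.5) scale. Bars span the quartiles over genes, open diamonds give the median with TMM-scaled totals, the 5 first-run libraries sit between 0.51 and 0.60, and the 4 second-run libraries between -0.02 and 0.02.

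Library by library, the same order was seen in the share of all counts that fell on the 150 genes. The share was 0.909%, 0.887%, 0.885%, 0.892% and 0.889% in first-run replicates 1 to 5. It was 0.598%, 0.617%, 0.589% and 0.605% in second-run replicates 6, 7, 9 and 10. Every second-run share lay below every first-run share, as the choice requires. Exercised 9-week replicates 1 to 5 gave 0.642%, 0.662%, 0.650%, 0.623% and 0.640%, and unexercised replicates 1 to 5 gave 0.596%, 0.583%, 0.614%, 0.622% and 0.584%. By this share, in which abundant genes weigh most, the second run lay in the range of unexercised 9-week fish and below all exercised ones. By the median gene it was not below all exercised ones. Exercised replicate 4 stood at -0.04 from the 9-week level and the second run at -0.02 to 0.02. The choice also favoured low second-run values.

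Of the 150 genes, 111 had the first run above every 9-week library without the second run below, with medians of 0.60 for the first run and 0.07 for the second relative to 9 weeks. In 4 genes the second run was below every 9-week library while the first run overlapped them, and the medians were 0.33 and -0.67. In 1 gene the 9-week libraries filled the gap between the runs. In the remaining 34 genes both runs overlapped the 9-week range, with medians of 0.40 and -0.28, and the 9-week median lay between those of the runs in 32 of the 34, with both runs above it in 1 and both below it in 1. Of all genes, 6.89% had the first run above every 9-week library without the second run below. The second run was below without the first above in 0.818%, and both held in 0.0114%. Neither held in 92.3%, a wider condition than overlap of both runs. The first run lay further from the 9-week median than the second in all but 17 of the 150. No share over all genes is given for this last count.

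**Figure D2:**
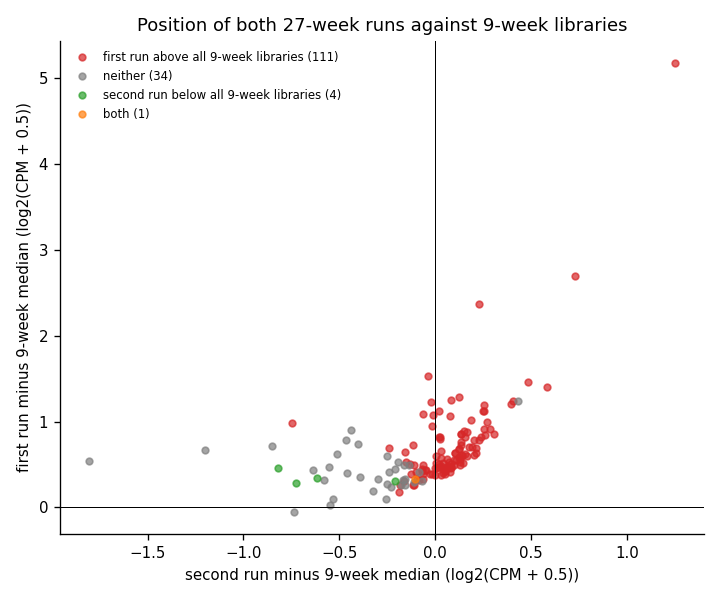
Each of the 150 genes by the median of the second run (horizontal) and of the first run (vertical), both minus the 9-week median on the log2(CPM + 0.5) scale. Colours give the position of the runs against all 10 9-week libraries, and the 111 red genes, with the first run above all 9-week libraries, lie mostly near 0 on the horizontal axis.

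Differences were modest for most of the list and large for few. Relative to 9 weeks, the first run was at least 2-fold higher in 20 genes, where 0.920% of all 17606 genes were. The quartiles over the 150 were 0.41 and 0.79. These 20 were mostly low in level, with a median of 4.60 CPM over all libraries and a range of 1.15 to 108 CPM. In 19 of the 20 the first run was above every 9-week library, and the second-run median of the 20 stood 0.24 above 9 weeks. Replicate 8 was also at least 2-fold above 9 weeks in 7 of the 20 (6.87% of all genes). With TMM-scaled totals it was so in 9 of them (10.7% of all genes).

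Nfu_g_1_009022 had the highest score. It also had the greatest first-run excess of the genes with the first run above every 9-week library and the second not below. Its CPM were 64.9, 68.7, 40.5, 13.5 and 50.7 in first-run replicates 1 to 5. They were 0.700, 2.81, 2.91 and 3.15 in replicates 6, 7, 9 and 10, and 2.56 in replicate 8. The gene was thus high in every first-run library, least so in replicate 4, and far lower in all 5 other 27-week libraries. Unexercised 9-week libraries held 0.268 to 2.09 CPM, 1.14 ± 0.789 (SD, n = 5), and exercised ones 0.389 to 2.55 CPM, 1.29 ± 0.839 (SD, n = 5). Those 9-week values rest on 8 to 55 counts per library, against 311 to 1671 in the first run. The first-run median was 36.2-fold above the 9-week median and 15.2-fold above the second-run median, after adding 0.5 CPM. On the same scale the second-run median was 2.37-fold above the 9-week median. Second-run replicates 7, 9 and 10 lay above every 9-week library, and replicate 6 lay within their range.

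Nfu_g_1_019957 ranked second by the same naming rule. Its CPM were 2.85, 3.87, 2.31, 3.96 and 5.32 in the first run and 0.617, 1.72, 0.295 and 0.606 in the second. Replicate 8 held 14.9 CPM, above all other libraries, so the list's order of the runs did not extend to that library. The 9-week libraries held at most 0.433 CPM, from 0 to 11 counts each, so its fold change there is set largely by the added 0.5 CPM. Both runs lay above most 9-week libraries in this gene, and the first run was 6.50-fold above their median on the log2(CPM + 0.5) scale.

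The other 2 named genes are those whose second run stood furthest under the 9-week median, among those with only the second run outside the 9-week range. Nfu_g_1_023527 held 40.2, 29.9, 49.4, 21.9 and 30.8 CPM in the first run, 13.1, 12.8, 12.0 and 11.5 CPM in the second, and 7.77 CPM in replicate 8. It stood at 19.1 ± 3.08 CPM (SD, n = 5) in unexercised and 26.9 ± 5.06 CPM (SD, n = 5) in exercised 9-week libraries, with ranges of 16.0 to 22.6 and 22.0 to 35.1. The first run therefore overlapped both 9-week ranges, and the second run lay under them.

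Nfu_g_1_022350 held 49.2, 39.4, 51.2, 38.6 and 41.4 CPM in the first run, 25.3, 18.6, 22.2 and 17.5 CPM in the second, and 11.7 CPM in replicate 8. Unexercised 9-week libraries ranged from 30.4 to 34.1 CPM and exercised ones from 33.6 to 52.1 CPM. The first run and the exercised 9-week fish thus shared 1 range, the unexercised 9-week fish lay below every first-run library, and the second run was lowest. Over the 19 libraries without replicate 8, Pearson r between Nfu_g_1_022350 and Nfu_g_1_023527 was 0.92, with points that share the run difference by which the genes were chosen. The 3 genes most like Nfu_g_1_009022 reached r of 0.97, 0.96 and 0.95, and all 3 are in the list of 150. For Nfu_g_1_019957 (r of 0.95 for all 3), Nfu_g_1_023527 (0.94, 0.92 and 0.91) and Nfu_g_1_022350 (0.94, 0.92 and 0.90) 1 of the 3 was in the list. All these r hold the run difference too, so membership in the list follows in part from the choice.

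**Figure D3:**
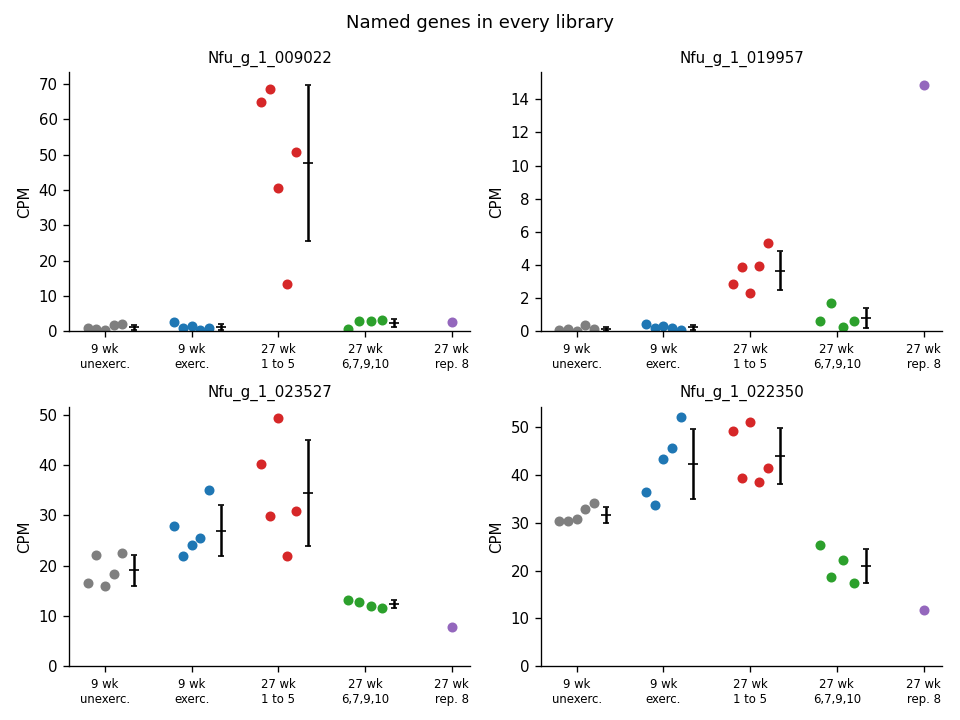
CPM of the 4 named genes in every library, 1 point per library, with mean ± SD in black for each set of 4 or 5 libraries. Nfu_g_1_009022 is high only among first-run libraries, Nfu_g_1_019957 is highest in replicate 8 at 14.9 CPM, and in the lower panels the second run lies under both 9-week groups.

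Whether a library that had no part in the choice shows the same order was examined by leaving out each of the 9 27-week libraries and choosing 150 genes again. Left-out first-run replicates 2, 3, 4 and 5 lay above the whole second run in all but 3, 4, 10 and 6 of the 150 genes chosen without them. Over all 17606 genes the same order held in 29.2%, 30.0%, 34.1% and 30.2%. Left-out second-run replicates 6, 7, 9 and 10 lay below the whole first run in all but 14, 9, 2 and 10 genes, an order seen in 21.9%, 21.7%, 29.3% and 24.8% of all. For the second run this order says little, since any library without the first run's level falls below it: 9-week libraries reached the lowest first-run value in 3 to 19 of the 150 genes as given. For the first run, the second-run libraries had helped to choose the genes by their low values, so the share of all genes is no matched baseline. In the 150 genes as given, 9-week libraries lay at or below the highest second-run value in 75 to 120. First-run replicates 2 to 5 stood above the second run in nearly all genes chosen without them. The same second-run libraries and replicate 1 took part in each of those choices, so this is a description.

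Replicate 1 of the 27-week group did not. It lay above the second run in 75 of the 150 genes chosen without it, against 30.4% of all genes, and 61 of those 150 were in the list as given. In the 89 genes that entered, replicate 1 was the lowest first-run library. The choice without it requires this, so its place below replicates 2 to 5 there is no result. First-run replicates 2, 3, 4 and 5 stood at median differences of 0.78, 0.66, 0.85 and 0.47 from the 9-week median in them, and replicate 1 at -0.83. The 9-week libraries also differed widely in the 89 genes, with medians of 1.06 and 0.95 in exercised replicates 2 and 4, but -0.63, -0.55 and -0.52 in exercised replicates 1, 3 and 5. Unexercised replicates 1 and 3 stood at 0.97 and 0.72 and replicate 2 at -0.87. The median SD over the 10 9-week libraries was 0.90 in these 89 genes, 0.16 in the 150 genes and 0.16 over all genes (log2(CPM + 0.5)). Some genes of the list as given showed a like order of the 9-week libraries, so the lists differ in degree. By the rule itself, the 150 genes as given are those in which replicate 1 goes with its run. Their median SD among 9-week fish was about that of all genes.

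**Figure D4:**
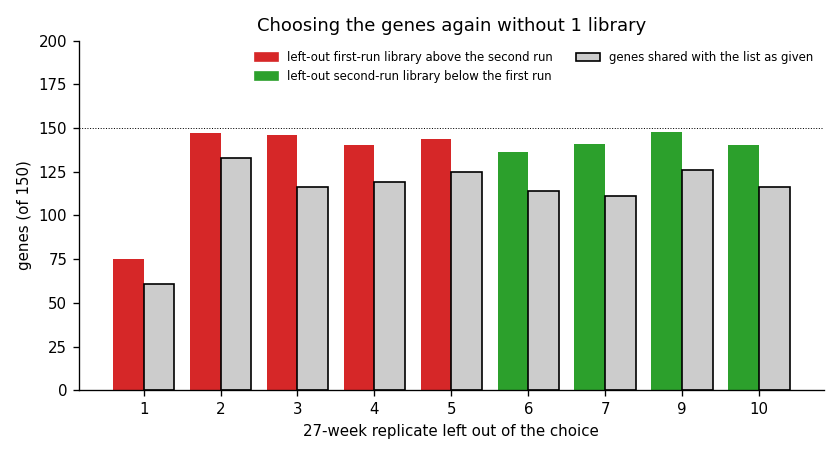
For each of the 9 27-week libraries, the number of 150 genes chosen without it in which it stayed on its own run's side (red for first-run, green for second-run libraries) and the number shared with the list as given (grey). Replicate 1 stays on its side in 75 genes and leaves 61 shared, while the other libraries stay on their side in all but 2 to 14 genes and share at least 111.

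Replicate 8 lay below every first-run library in 131 of the 150 genes, but its raw scale is low throughout, and 67.3% of all genes did the same. Its median difference from 9 weeks was -0.42 in the 150 genes and -0.44 over all genes, and with TMM-scaled totals -0.000348 and -0.01. The second-run medians with TMM-scaled totals were -0.04 to -0.003. On the TMM scale it was below every first-run library in 113 of the 150 genes, where 32.0% of all genes were. This order too says little, since the choice favoured high first-run values. On the raw scale 9-week libraries reached the lowest first-run value in 3 to 19 of the 150 genes, and replicate 8 in 19. With TMM-scaled totals replicate 8 reached it in 37. It exceeded the whole second run in 32 of the 150 on the raw scale (13.4% of all genes) and in 61 on the TMM scale (33.4% of all). It lay below all 9-week libraries in 94 (62.2% of all genes), or 42 with TMM (30.6%). In 22 genes of the list it stood at least 2-fold above 9 weeks on the TMM scale, as 10.7% of all genes did. On the TMM scale the median gene of the list thus stood in replicate 8 at the 9-week level, as did the median of all genes. The quartiles over the 150 genes were -0.31 and 0.36. Gene by gene, replicate 8 lay within the second-run range in 36 of the 150 on that scale (32.0% of all genes). It was below that range in 53 (34.6% of all). Between the runs it lay in 24 (0.545% of all), a place that exists only where the runs are apart, as the choice requires.

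Among 9-week fish the list leaned towards exercise, by small amounts, and the groups of libraries overlapped. The median difference from the 9-week level was -0.04 to 0.10 in exercised and -0.09 to 0.006 in unexercised libraries. Exercised replicate 4, at -0.04, stood under unexercised replicates 2, 3 and 4. With TMM-scaled totals it stood under unexercised replicates 3 and 4. The rule used these libraries only to require that the ranges of the groups overlap. That keeps out genes with fully separate groups in either direction, but not every large difference. Exercised minus unexercised ran from -1.21 to 0.63 over the list. The mean of exercised libraries was above that of unexercised ones in all but 33 of the 150 genes (78.0%), where this held in 54.9% of all 17606 genes, and the median difference was 0.08 against 0.01 over all genes (log2(CPM + 0.5)). With TMM-scaled totals it was 110 of 150 against 48.2%, with medians of 0.07 and -0.01. Exercised libraries were mostly shallower, with a median total of 18462248 counts against 26684196 in unexercised ones. The first run was likewise shallower than the second, and the part of depth was not tested. By edgeR's quasi-likelihood test 0 of 149 tested genes of the list passed an adjusted p of 0.05, where 0.0994% of 19123 genes did, and DESeq2 called 0 of 150, where 1.54% of all genes were called. At an unadjusted p under 0.05 edgeR gave 25 of the 149, all 25 higher in exercised fish, where 5.78% of all genes were higher at that p and 12.1% differed either way. DESeq2 gave 26, where 10.6% of all genes passed. The gene not tested was Nfu_g_1_019957, removed by the filter on low counts.

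**Figure D5:**
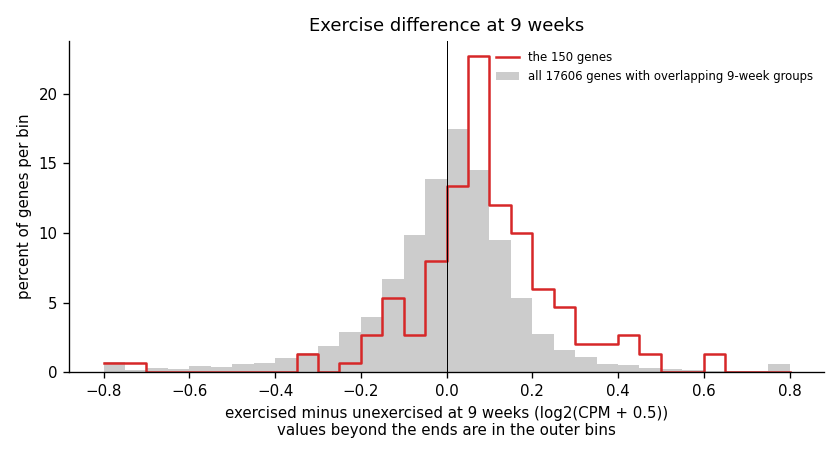
Distribution over genes of the exercised minus unexercised difference of group means at 9 weeks (log2(CPM + 0.5), bins of equal width) for the 150 genes (red line) and for all 17606 genes they were chosen from (grey bars). The red line is shifted to the right, with all but 33 of the 150 genes above 0, and nearly all differences are small.

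For comparison, the same rule with the runs exchanged gives 150 genes that were lower in the first run than in the second. In that list the exercised mean was above the unexercised one in 33 of 150 genes, where it was above in 54.9% of all 17606 genes. The median difference was -0.10, against 0.01 over all genes. The first run was below all 9-week libraries in 77 genes of that list, and in 3.50% of the 17606 genes. No difference between the lists was tested. The exercise and run differences share no library, but exercised libraries and the first run were both mostly the shallower ones. The part of depth was not tested.

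For the named genes, edgeR gave a log2 fold change with exercise of 0.47 (SE 0.14, adjusted p = 0.250) for Nfu_g_1_023527 and 0.39 (SE 0.11, adjusted p = 0.233) for Nfu_g_1_022350. For Nfu_g_1_009022 it was 0.12 (SE 0.58, adjusted p = 0.974), and without exercised replicate 1 or unexercised replicate 2 or 3 it was -0.28, -0.03 and -0.14. None of these differences passed the threshold.

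Pooling both runs as the labels do, few of the 150 genes passed in the comparison of 27 with 9 weeks. The rule used 9 of these 10 libraries, so the direction follows in part from the choice and nothing about age is read from it. The second run, of the same age, stood at a median of 0.02 from the 9-week level. Against exercised 9-week fish 2 of the 150 genes passed in edgeR, both higher at 27 weeks, where 2.16% of 19531 genes were called and 1.16% called higher. DESeq2 called 28, and 7.35% of all genes. The median log2 fold change was 0.28 in the list and 0.01 over all genes. Against unexercised 9-week fish, where age and exercise both differ, 13 of the 150 passed, all higher, where 4.35% of 19591 genes were called and 2.57% called higher. DESeq2 called 54, and 10.1% of all genes. The medians of the log2 fold change were 0.34 and 0.01. In all 13, and in both of the former, the first run lay above every 9-week library.

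These counts moved when single libraries were left out, as did the calls over all genes. Against exercised fish the count of 2 became 0 without any 1 of the exercised 9-week replicates 1 to 5 or of 27-week replicates 1 to 5, and 11, 10 and 4 without 27-week replicates 6, 8 and 10. Over all genes the 421 calls fell to 7 to 169 without 1 exercised 9-week replicate and to 187 to 364 without 1 of 27-week replicates 1 to 5. Without 27-week replicates 6, 8 and 10 they were 720, 915 (4.71% of all genes) and 395. At an unadjusted p under 0.05, edgeR gave 63 of the 150 with all libraries, all higher, where 12.7% of all genes were. Against unexercised fish the count of 13 became 0 without unexercised replicate 1, 2, 4 or 5 and 2 without replicate 3. Without 27-week replicates 1 to 5 it was 3, 2, 3, 7 and 1, and without replicates 6, 8 and 10 it was 21, 34 and 20. Over all genes the 853 calls fell to 147 to 317 without 1 unexercised replicate and to 339 to 709 without 1 of 27-week replicates 1 to 5. Without 27-week replicates 6, 8 and 10 they were 1147, 1547 (7.93% of all genes) and 1107. With all libraries 84 of the 150 had an unadjusted p under 0.05 in edgeR, all higher, where 14.6% of all genes were.

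The 4 named genes were named for the distance of a 27-week run from 9 weeks, so a test of 27 against 9 weeks would restate that choice, and no p-value is given for them. Over the 10 27-week libraries Nfu_g_1_009022 stood at 25.1 ± 28.1 CPM and Nfu_g_1_019957 at 3.64 ± 4.28 CPM (SD, n = 10), so the SD exceeded the mean in both.

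Apart from the measures that chose them, the 150 genes resembled the rest in level and less so in length. Their mean level had a median of 22.1 CPM, against 20.2 CPM over all 17606 genes, with a range of 1.01 to 626 CPM. The lowest count of a gene in any library had a median of 319.5 over the list, and 7 genes had a library under 10 counts. Gene length, as implied by the deposited values, had a median of 3276 bp in the list and 2742 bp over all. Genes under 1500 bp made up 16.0% of the list and 27.7% of all, and genes of 6000 bp or more 13.3% and 15.7%. Level per length at 9 weeks had a median of 6.91 CPM per kilobase in the list and 8.12 over all. The slope of log2 level on log2 length ran from -0.0073 to 0.0074 in the first run and from -0.0211 to -0.0009 in the second. With this slope removed from every library, all but 7 of the 150 genes were chosen again, and the first run was above all 9-week libraries in 113.

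Among 9-week libraries the 150 genes varied together weakly. Across the 10 9-week libraries, with each group's mean removed, the mean Pearson r over the 11175 pairs of genes was 0.11. It was 0.01 over all pairs of the 17606 genes and 0.03 in the list chosen with the runs exchanged. The points share libraries, depth and composition. The mean r of the 150 genes was 0.10 among unexercised and 0.12 among exercised 9-week fish alone. Within the 27-week runs it was 0.06, against 0.04 in the list chosen with the runs exchanged and 0.01 over all genes. Among 9-week fish the list was highest in exercised replicate 3, at a median difference of 0.10, and lowest in unexercised replicate 5, at -0.09. Exercised replicate 3 also had the smallest total of the 20 libraries, at 15048627 counts, and the part of depth in this was not tested. A 9-week library reached the first-run range in 10 to 19 of the 150 genes if exercised and in 3 to 10 if not. The share over all genes was not taken for these counts, so nothing about exercise is read from them.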

How the data were processed

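Brain RNA of 20 libraries in 3 labelled groups was analysed from a table of counts and a table of RPKM. The authors deposited raw counts per gene, as whole numbers. The kit was TruSeq RNA v2, as the labels' protocols state. Tools listed in the submitters' processing notes, with no role given, are featureCounts 1.4.6-p4, STAR 2.4.1d and bcl2fastq 1.8.4. For genome build, annotation and strand setting the sources used here give nothing, so reads of near-identical, overlapping or antisense genes may be mixed. The deposited RPKM, per the file headers 1 column per library, do not follow the totals of the columns they stand in: over 10327 genes the gene length implied by own totals varied with a log2 SD of 0.42, and by totals taken in turn down the table with 5.64e-05. RPKM therefore served only to give gene lengths.

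CPM used raw column sums. The genes of the list and the tests were chosen with earlier results of these data known. Each comparison of labelled groups used edgeR 4.0.16 (R 4.3.3) on the 2 groups, with filterByExpr, TMM factors and the two-sided quasi-likelihood test, Benjamini-Hochberg adjusted over all genes tested, threshold 0.05. Steps were tested on simulated data. Alternatives were DESeq2 1.42.0, RLE factors, no filter, all libraries in 1 fit, other pseudocounts (0.1 and 1) and leaving out each replicate. No replicates were alike within sampling noise (lowest chi-square per degree of freedom 7.57). Depth was 15048627 to 34843199 counts per library. Of the named genes, 2 have the greatest first-run excess over 9 weeks. They come from genes with the first run above all 9-week libraries and the second not below all of them. The other 2 have the greatest second-run deficit, among genes with the second run below all 9-week libraries and the first not above. Gene lists by symbol could not be used.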

Additional observations from a re-analysis of the deposited data

Results flagged for a closer look

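Each set of 4 to 10 libraries was searched for an extreme value whose distance to the next one took up most of the spread in that set. A library stood apart in 8 of 55 such sets, where chance gives about 1 in 20, and several sets overlap or measure related things. Both the total of 34843199 counts and the 22032 genes detected set exercised 9-week replicate 2 above its group. At 27 weeks, replicate 8 stood apart by the 10.4% of counts in its 10 most counted genes, a TMM factor of 0.731 and a length slope of -0.0872, and 14.9 CPM of Nfu_g_1_019957. Replicate 1 had 0.909% of its counts in the 150 genes, above the other first-run libraries, and replicate 6 had 0.700 CPM of Nfu_g_1_009022, below the other second-run libraries.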

How the results depend on the processing

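The list depended little on the scale: 13 of the 150 genes were replaced with TMM-scaled CPM, 5 with a pseudocount of 0.1 or 1, 4 without the level filter, 12 without the overlap rule and 26 with replicate 8 in the second run. Removing the length trend was chosen after seeing the data. Leaving out 1 library gave 61 to 148 shared genes, 57 to 120 with the first run above and 4 to 11 with the second run below all 9-week libraries. Of these left-out counts against 9 weeks, only the 57 has a share over all genes beside it, 7.84%. Fewer libraries meet such a condition more easily. Where values moved, the cause was not tested.

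Genes of the list called against exercised 9-week fish (2) were 0 without a filter, 28 by DESeq2, 19 with all 20 libraries and 0 to 11 without 1 replicate. Against unexercised fish (13) they were 5, 54, 44 and 0 to 34. For exercise at 9 weeks the count was 0 under all 14 alternatives, with 0 to 27 at an unadjusted p under 0.05. Over all genes, calls for exercise were 19 (edgeR), 353 (DESeq2), 1 (all 20 libraries) and 0 to 15 without 1 replicate. For age they were 421, 1688 and 1207 against exercised and 853, 2323 and 1793 against unexercised fish. Without 1 replicate they were 7 to 915 against exercised and 147 to 1547 against unexercised fish. Leaving out 1 replicate turned the sign for Nfu_g_1_009022 with exercise (-0.28 to 0.46) and for Nfu_g_1_022350 at 27 weeks against unexercised fish (-0.13 to 0.053), neither called. No paired analysis was possible because no label gives replicate numbers or pairs libraries across groups, and the numbers used here only follow the order of the titles.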
